A study of Mus musculus with 16 samples.

Results

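The cell cycle genes described here are the genes of mouse liver whose pathway annotation in the deposited m6A peak lists named the KEGG cell cycle pathway. They numbered 52 of the 8284 genes with a peak in any list, and they carried 144 of 28297 peaks. A further 14 genes with the same annotation, among them genes of other 14-3-3 proteins, cohesin and histone deacetylases, were not analysed here. N6-methyladenosine (m6A) is a methyl mark on adenosines of RNA. It was mapped by methylated RNA immunoprecipitation sequencing, in which an antibody pulls down methylated RNA fragments and a peak is a stretch of a transcript enriched among them. The comparison was of 4 livers of male db/db mice and 4 livers of male lean C57BL/6 control mice, with food and water freely available in both groups. The db/db mice lack a working leptin receptor in every cell, so that obesity and diabetes come together in this model, and the labels name that mutation as their strain and C57BL/6 as that of the lean mice. Each mouse gave 1 peak list, and the sources used here did not give their age.

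The cell cycle is driven by cyclin-dependent kinases (CDKs), which are switched on by cyclins and held back by CDK inhibitors. Active CDKs phosphorylate the retinoblastoma family, which releases E2F transcription factors, and S phase then starts at origins licensed by the ORC and MCM complexes. The ubiquitin ligases SCF and APC/C destroy cyclins and inhibitors so that the cycle moves one way, and checkpoints stop it when DNA is damaged or the spindle is not attached. Most hepatocytes of an adult liver are out of the cycle and re-enter it after injury. Methyl marks on mRNA are placed mostly near stop codons and in long exons, and they are known to shorten the life of many transcripts.

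Lists held between 2475 and 4807 peaks, and sequencing depth was unknown, so that a missing peak can mean little methylation, little RNA or too few reads. In these bulk livers, fewer cells of a type and less RNA per cell cannot be told apart. Among hepatocyte markers, 3 of 8 had a peak in any list (Apoa1, Ttr and Hnf4a), with 0 to 2 of them per db/db mouse and 0 to 1 per lean mouse, and Alb had none. All 5 sinusoidal endothelial markers had a peak in at least 1 list (1 to 3 per db/db and 1 to 2 per lean mouse). So did all 5 stellate cell markers (1 to 2 per mouse in both groups). Of Kupffer cell and macrophage markers, 4 of 5 had one (0 to 2 per db/db and 0 to 3 per lean mouse). Of lymphocyte markers, 1 of 4 had one (0 to 1 per mouse in both groups). Of 4 markers of proliferation, Mki67 had a peak in a single db/db mouse, and Top2a, Birc5 and Tpx2 had none.

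Cell cycle genes carried m6A peaks in every liver, and which of them did varied in part from mouse to mouse. Of those with a peak in a given mouse, between 68.4% (db/db mouse 4) and 100% (db/db mouse 2, lean mouse 4) also had one in another mouse. The number of cell cycle genes with a peak was 24, 12, 20 and 19 in db/db mice 1 to 4, and 16, 13, 8 and 8 in lean mice 1 to 4. The db/db mean was 18.8 ± 4.99 and the lean mean 11.2 ± 3.95 (SD, n = 4 each), and the groups overlapped, since db/db mouse 2 lay below lean mice 1 and 2. As a share of the 52 genes this was 36.1% ± 9.6 against 21.6% ± 7.59, beside 35.3% ± 5.53 against 30.5% ± 7.6 over all 8284 genes (SD, n = 4 each). The difference of 7.5 genes between the means fell to 3 (11.8 against 8.75) when every list was reduced to its 2475 peaks of highest fold, and to 2.5 (7 against 4.5) with peaks of p at most 1e-10. Lean mice 3 and 4 had fewest in the lists as deposited, and lean mouse 3 also had the shortest list. At equal list length they again had fewest, 8 and 7, beside 9 to 14 in the other mice. With peaks of p at most 1e-10 lean mouse 2 had fewest, 2.

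Set against the length of each list, peaks in cell cycle genes made up 0.666%, 0.53%, 0.577% and 0.588% of the peaks of db/db mice 1 to 4. They made up 0.478%, 0.435%, 0.364% and 0.275% of the peaks of lean mice 1 to 4. The 4 db/db values lay above the 4 lean values. At equal list length the range was 0.444% to 0.687% in db/db and 0.283% to 0.525% in lean mice, and the groups overlapped. No test was made of these sums over the chosen genes.

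**Figure D1:**
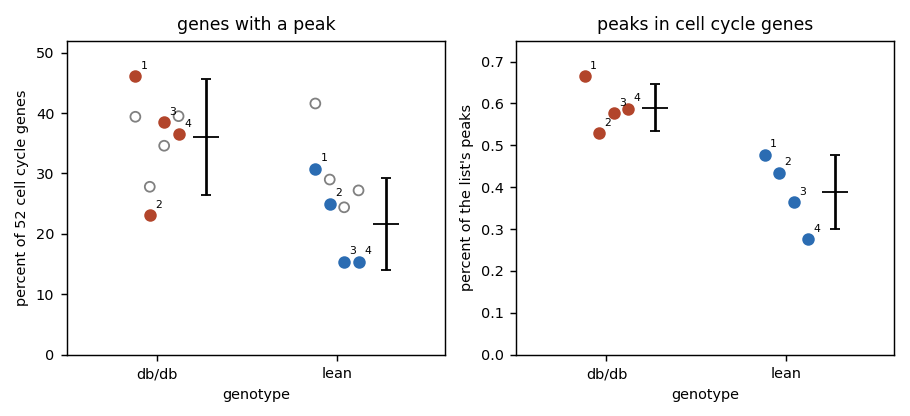
Left, percent of the 52 cell cycle genes with a peak in each mouse (filled circles, numbered by mouse) and percent of all 8284 genes (open circles); right, percent of each list's peaks that lie in cell cycle genes. Black bars are the mean ± SD of 4 mice; in db/db mice the filled circles reach from 23.1% to 46.2% and in lean mice from 15.4% to 30.8%.

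No cell cycle gene had a peak in all 8 mice. Of the 52 genes, 3 had a peak in at least 6 mice (5.77%, beside 10.7% of all genes), 5 more in 4 or 5 mice, 26 in 2 or 3 mice and 18 in 1 mouse (34.6%, beside 38.5% of all genes). Peaks were seen in both genotypes for 22 genes (42.3%, beside 49.1%), in db/db mice only for 20 (38.5%, beside 30.1%) and in lean mice only for 10 (19.2%, beside 20.8%). More db/db than lean mice had a peak for 31 genes (59.6%, beside 45.3% of all genes), more lean mice for 13 (25%, beside 32.3%), and 8 had equal numbers. With lists of equal length these were 25 (54.3%, beside 39.7%) and 15 (32.6%, beside 39.7%) of the 46 genes left. In Fisher's exact test on the number of mice with a peak, adjusted by Benjamini-Hochberg over all 8284 genes, 0 of the 52 genes passed 0.05, as did 0% of all genes. None of the 52 had an unadjusted p under 0.05, which 0.338% of all genes had, and only 4 mice against 0 can reach it.

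**Figure D2:**
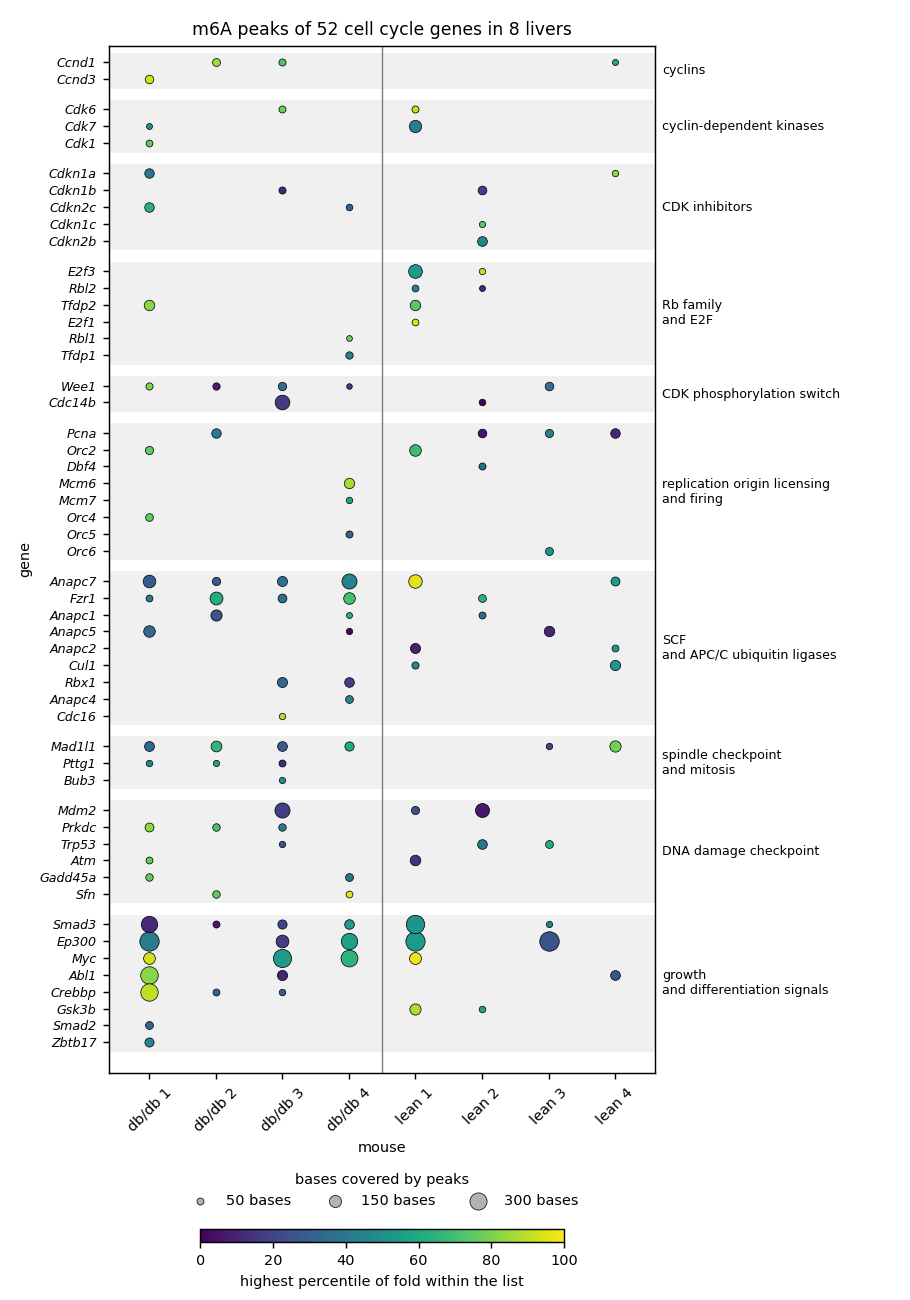
Each row is a cell cycle gene, grouped by role, and each column a mouse; a circle marks a gene with a peak, its area the bases covered by the gene's peaks and its colour the highest percentile of fold within that mouse's list. No row is filled in all 8 columns, and Anapc7, Mad1l1 and Smad3 are filled in all 4 db/db columns and in 2 lean columns each.

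A difference of at least 3 mice was found for 5 genes, Crebbp, Fzr1, Prkdc, Pttg1 and Wee1 (9.62%, beside 3.54% of all genes). All had more db/db mice, the direction of 2.44% of all genes. In the direction of more lean mice there were 0, beside 1.1% of all genes. With a difference of at least 2 mice, 13 genes had more db/db mice (25%, beside 12.1%), and 6 had more lean mice (11.5%, beside 7.33%), namely Anapc2, Cul1, E2f3, Gsk3b, Pcna and Rbl2. With lists of equal length the count of 5 became 1, Prkdc (beside 3.05% of all genes), and with peaks of p at most 1e-10 it became 1, Crebbp (beside 2.03%). With 1 lean mouse left out it was 8, 5, 7 and 7 for lean mice 1 to 4, as the share of all genes rose to between 3.68% and 4.74%. Without a db/db mouse, a difference of 3 in that direction takes 3 mice against 0, and the share of all genes that had one fell from 2.44% to between 0.533% and 0.748%. The count was then 0 without mouse 1 or 3, 3 without mouse 4, and 1 without mouse 2, which was Pcna with more lean mice. Fzr1 and Wee1 kept a difference of 75 percentage points whichever db/db mouse was left out. That follows by arithmetic, as every db/db list held both genes, and is no check of stability. The difference fell to 50 points for Fzr1 and 25 for Wee1 at equal list length. It took these same values with peaks of p at most 1e-10.

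A smaller part of the sites was shared between mice in cell cycle genes than in all genes. The 144 peaks formed 115 regions, a region being the union of peaks of one gene that share at least 1 base. Of these, 16 had a peak in 2 or more mice (13.9%, beside 23.4% of all 17936 regions) and 3 in at least 4 mice (2.61%, beside 7.92%). Of the 34 cell cycle genes with a peak in 2 or more mice, 13 had a region that 2 or more mice shared (38.2%, beside 61.5% of 5098 such genes in all). The other 21 had each region in a single mouse. Of the 115 regions, 0 differed by 3 mice or more between the genotypes (beside 1.14% of all regions), and 0 passed Fisher's exact test adjusted over all regions (0% of all regions). None had an unadjusted p under 0.05, beside 0.167% of all regions.

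**Figure D3:**
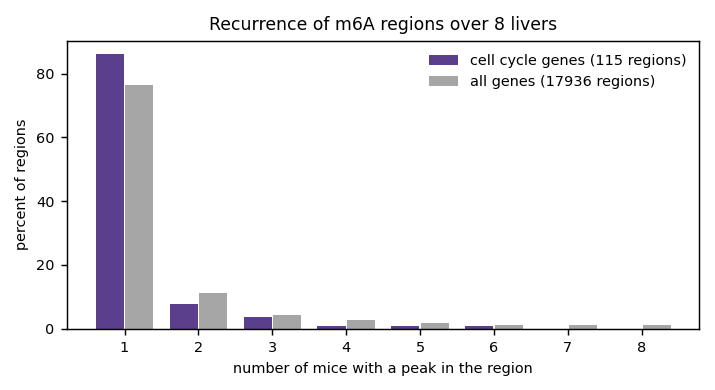
Percent of regions (y axis) by the number of mice with a peak in the region (x axis), for the 115 regions of cell cycle genes and all 17936 regions. Regions of 1 mouse make up 86.1% and 76.6%, and no cell cycle region is shared by 7 or 8 mice.

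The lengths of peaks in cell cycle genes ran from 32 to 379 bases with a median of 64.5, beside 74 for all peaks. Their median was below that of the whole list in each db/db mouse and in lean mice 2 and 3, and above it in lean mice 1 (86 against 76) and 4 (87.5 against 76). The fold enrichment of a peak, which the authors set against the background within each list, ran from 3.77 to 39.17 with a median of 9.98, beside 11 for all peaks, and no peak exceeded 100-fold, beside 498 of all peaks. In percentiles of fold within their own lists, where 100 is the strongest peak of a mouse, the median was 44.3. The strongest were those of Myc (lean mouse 1, fold 39.17, percentile 96.9), Anapc7 (lean mouse 1, fold 29.78, percentile 95.3), E2f1 (lean mouse 1, fold 27.8, percentile 94.9), Sfn (db/db mouse 4, fold 30.34, percentile 94.6) and Ccnd3 (db/db mouse 1, fold 27.69, percentile 92.8).

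Transcript starts and strand were taken from RefSeq (GRCm38.p6, the coordinates of mm10) for 46 of the 52 genes, with 125 peaks. Of these, 50 peaks in 26 genes lay in the final 10% of the gene's length (40%, beside 26.4% of 21124 peaks in all genes). Within 300 bases of a listed transcript start lay 22 peaks in 16 genes (17.6%, beside 22% of all), and 54 peaks (43.2%, beside 51.7%) lay elsewhere. The peak of Ccnd3 counts under both, being near an inner start. By genotype, 34 of 79 peaks in db/db mice (43%) and 16 of 46 in lean mice (34.8%) were in the final 10%. Near a start were 13 (16.5%) and 9 (19.6%). These counts pool the peaks of 4 mice, and peaks of all genes were not split by genotype. In the final 10% lay 7 of 28, 7 of 12, 10 of 16 and 10 of 23 peaks in db/db mice 1 to 4. In lean mice 1 to 4 there were 8 of 19, 4 of 12, 2 of 8 and 2 of 7. These positions are along the gene and include introns, since exons were not used here. Ccnd1, Cdkn1c, Myc, Prkdc, Smad2 and Wee1 were not among the 46.

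**Figure D4:**
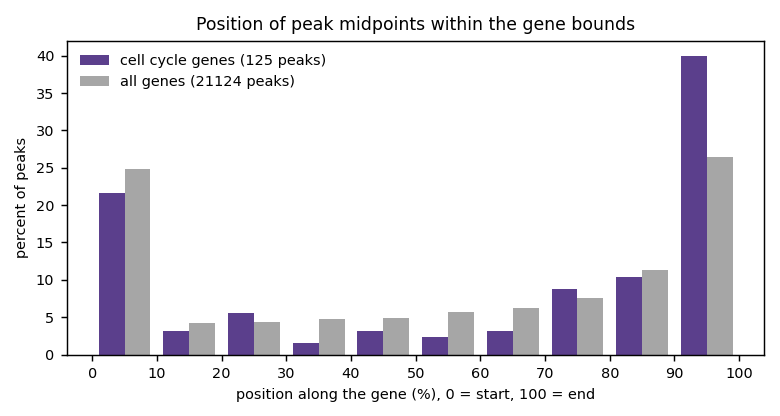
Percent of peak midpoints in each step of 10% of the gene's length, from the start (0) to the end (100), for 125 peaks of cell cycle genes and 21124 peaks of all genes. The final 10% holds 40% and 26.4%, and the initial 10% holds 21.6% and 24.8%.

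The ubiquitin ligase genes held the most widely shared site. In all, 142 genes were looked up by role, and 74 of them had no listed peak. The share of all annotated genes without a peak was not worked out. Of 20 SCF and APC/C genes looked up, 9 were among the cell cycle genes with a peak, 1 had a peak without the annotation and 10 had no listed peak. More db/db than lean mice had a peak for 7 of the 9 and more lean mice for 2, beside 31 and 13 of all 52 genes. Over all 8284 genes the shares were 45.3% and 32.3%. With lists of equal length the counts were 6 and 3 of 9 (8284-gene shares became 39.7% each). With peaks of p at most 1e-10 they were 4 and 2 of 6 (shares over all genes 46.2% and 35.8%). Anapc7 (gene ID 56317), which encodes a scaffold subunit of APC/C, lies on chromosome 5 at 122422444 to 122444912 on the plus strand. Each db/db mouse and lean mice 1 and 4 had a peak in 1 region of 164 bases, chr5:122444264-122444427 (mm10). Its midpoints lay between 558 and 570 bases before the gene's end. Folds there were 7.03, 8.35, 8.05 and 9.83 in db/db mice 1 to 4, and 29.78 and 13.4 in lean mice 1 and 4. All 6 peaks had 66 bases in common and were 70 to 164 bases long. Bases covered in Anapc7 as a whole were 163, 70, 103 and 231 in db/db mice 1 to 4, and 186, 0, 0 and 82 in lean mice 1 to 4. The means of 142 ± 70.9 and 67 ± 88.2 (SD, n = 4 each) did not differ beyond the spread (exact permutation test, two-sided, p = 0.286, adjusted p = 1). With peaks of p at most 1e-10, Anapc7 had a peak in 0 db/db and 2 lean mice.

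Fzr1 encodes CDH1, the activator of APC/C in late mitosis and G1. Peaks were listed in it for each db/db mouse and for lean mouse 2 (Fisher's exact p = 0.143, adjusted p = 1). Its peaks covered 48, 170, 79 and 138 bases in db/db mice 1 to 4 and 62 bases in lean mouse 2, with 0 in the other lean mice. The means were 109 ± 55.3 and 15.5 ± 31 (SD, n = 4 each, exact permutation p = 0.0571, adjusted p = 0.928). The lean value lay within the db/db range. No single site of Fzr1 was shared by more than 2 mice. Of 5 regions, db/db mice 2 and 4 shared 1 near the end of the gene, chr10:81367075-81367198, and db/db mouse 3 and lean mouse 2 shared 1, chr10:81370240-81370335. Db/db mouse 1 shared none.

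The other APC/C and SCF members rested on fewer mice. Anapc1, the largest scaffold subunit of APC/C, had 4 separate regions in db/db mice 2 and 4 and lean mouse 2. Anapc5, a further scaffold subunit, had 3 regions in db/db mice 1 and 4 and lean mouse 3. Anapc2, the cullin of APC/C, and Cul1, the cullin of SCF, each had a peak in lean mice 1 and 4 only (Fisher's exact p = 0.429, adjusted p = 1 for each). No site of Anapc1, Anapc2, Anapc5 or Cul1 was shared. Anapc4 and Cdc16, APC/C subunits, had 1 peak each, in db/db mouse 4 and db/db mouse 3. The peak of Cdc16 also lay within the annotated lncRNA gene Gm46032.

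In Pcna, Rbx1 and Trp53, peaks of at least 2 mice overlapped the RefSeq window around a listed transcript start (250 bases before to 50 after), which held for no other of the 46 genes. Their initial transcribed bases are shown because those peaks fall on them. Rbx1 encodes the RING subunit of SCF, Pcna the sliding clamp of DNA polymerase and Trp53 the p53 tumour suppressor. Each line gives, 5′ to 3′ on the gene's strand, 50 bases before the start and the first 50 bases of the transcript from RefSeq (GRCm38.p6), with the bases covered in every mouse that had the peak in capitals.
Pcna, chr2:132253131-132253230, minus strand: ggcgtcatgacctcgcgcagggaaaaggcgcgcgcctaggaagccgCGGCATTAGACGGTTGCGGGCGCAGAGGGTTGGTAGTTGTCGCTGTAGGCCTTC
Rbx1, chr15:81466266-81466365, plus strand: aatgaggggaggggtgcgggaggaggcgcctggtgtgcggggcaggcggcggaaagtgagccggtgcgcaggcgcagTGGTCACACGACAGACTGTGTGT
Trp53, chr11:69580309-69580408, plus strand: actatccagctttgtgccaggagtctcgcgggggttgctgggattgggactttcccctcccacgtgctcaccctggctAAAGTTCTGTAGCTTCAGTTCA

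The capitals cover all of the first 50 transcribed bases of Pcna and 4 bases before its listed start. In Rbx1 they begin at base 28 and in Trp53 at base 29. The motif GGAC, the core of the sequence in which m6A is most often found, was absent from the first 50 bases of Pcna, Rbx1 and Trp53 on the transcript strand, and so was its reverse complement GTCC. On the transcript strand 18.9% of 32851 such stretches in RefSeq hold GGAC, and 33.3% hold it on either strand. The printed lines hold 54 of the 68 bases common to the Pcna peaks, 23 of 95 for Rbx1 and 22 of 38 for Trp53. The bases of these peaks further along the gene were not searched, nor were other forms of the m6A sequence. The capitals of Rbx1 hold AGACT, which is such a form. For Pcna and Trp53, whether the peaks lack an m6A motif is not shown.

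The start peak of Pcna (gene ID 18538) came from db/db mouse 2 and from lean mice 2 and 4, in the region chr2:132253094-132253192. Folds there were 10.14, 4.89 and 6.27. Lean mouse 3 had a peak of fold 11.89 near the other end of the gene. The gene as a whole thus had peaks in 1 db/db and 3 lean mice (Fisher's exact p = 0.486, adjusted p = 1), and peaks covered 91 bases in db/db mouse 2, 76, 68 and 93 bases in lean mice 2 to 4, and 0 in the others. The difference in covered bases was within the spread between mice (22.8 ± 45.5 in db/db, 59.3 ± 40.9 in lean, SD, n = 4 each, exact permutation p = 0.371, adjusted p = 1). Both with lists of equal length and with peaks of p at most 1e-10, equal numbers of db/db and lean mice had a peak in Pcna.

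Rbx1 (gene ID 56438) had its peak in db/db mice 3 and 4, with folds of 7.88 and 6.56, in the region chr15:81466340-81466443, and in no lean mouse (Fisher's exact p = 0.429, adjusted p = 1). The Trp53 (gene ID 22059) peak came from db/db mouse 3 and from lean mice 2 and 3, with folds of 7.01, 9.16 and 16.36, in the region chr11:69580375-69580469. Both genotypes held the Trp53 site. Processed copies are annotated for all 3 genes (2 for Pcna, 1 for Rbx1 and 1 for Trp53), and the sources used here did not say how reads that match such copies were placed.

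Of 22 genes of origin licensing, firing and the replication fork, 8 were among the cell cycle genes with a peak, 1 more had a peak and 13 had no listed peak, among them Mcm2 to Mcm5, Cdc6 and Cdt1. Besides Pcna, each had a peak in 1 or 2 mice and shared no site. Orc2, a subunit of the origin recognition complex, had 4 peaks at 4 places, with 2 of them in mouse 1 of each genotype. Mcm6, a subunit of the replicative helicase, had 2 peaks in db/db mouse 4, both of fold 21.67. Dbf4, the activator of the kinase CDC7, had 1 peak in lean mouse 2, with a fold of 8.51. Orc4 and Orc5 had a peak in a db/db mouse only, as did the helicase subunit Mcm7, and Orc6 in a lean mouse only.

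Of the 11 cyclin genes, Ccnd1 and Ccnd3, both of the D type, had a peak. The other 9, including those of the A, B and E types, had no listed peak, beside 74 of the 142 genes looked up by role. Ccnd1, whose protein activates CDK4 and CDK6 in G1, had 1 region, chr7:144939782-144939845, in db/db mice 2 and 3 and lean mouse 4. It lay at the gene's bound of higher coordinate (144939831) and reached 14 bases past it. The peaks were 64, 52 and 37 bases long with folds of 22.87, 13.84 and 14.35. The shortest peak lay within both others. Ccnd3 had 1 peak, in db/db mouse 1, with a fold of 27.69 and its midpoint 162 bases after a listed start.

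Among 5 CDK genes, Cdk6, Cdk7 and Cdk1 had peaks and 2 had none listed. Cdk6, a partner of D-type cyclins, had a peak with identical bounds in lean mouse 1 and db/db mouse 3, chr5:3515454-3515504, and folds of 20.22 and 15.23. It was the only cell cycle gene with a peak of identical bounds in 2 mice (2 of 144 peaks, 1.39%, beside 4.02% of all peaks). Cdk7, the CDK-activating kinase, had 2 peaks in lean mouse 1 and 1 in db/db mouse 1, all at different places. Cdk1, the kinase of mitotic entry, had 1 peak, in db/db mouse 1, with a fold of 16.53.

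Of 7 CDK inhibitor genes 5 had a peak, at 9 regions for 9 peaks. Each region was thus in 1 mouse, as were 86.1% of cell cycle regions and 76.6% of all regions. Only Cdkn1a, Cdkn1b and Cdkn2c had peaks in 2 mice and could have shared a site. Cdkn1a (p21), a target of p53, had 1 peak in db/db mouse 1 (fold 9.72) and 1 in lean mouse 4 (fold 20.89), with midpoints 2177 and 796 bases from the gene's end. Cdkn1b (p27) had 1 peak in db/db mouse 3 (fold 5.36) and 1 in lean mouse 2 (fold 6.5). Cdkn2c (p18), an inhibitor of CDK4 and CDK6, had 2 peaks in db/db mouse 1, 1 in db/db mouse 4 and none in lean mice. Cdkn2b and Cdkn1c had 1 peak each, both in lean mouse 2, and the peak of Cdkn2b also lay within the lncRNA gene Gm12610.

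Of 10 genes of the retinoblastoma family and the E2F factors, 6 had a peak, at 9 regions for 9 peaks. Regions of 1 mouse made up 86.1% of cell cycle regions and 76.6% of all regions. Rb1, the founding member, had no listed peak. Its relative Rbl2 (p130), which holds E2F targets silent in resting cells, had a peak in lean mice 1 and 2 only, with folds of 8.68 and 5.79. E2f3, an activator of S phase genes, also had a peak in lean mice 1 and 2 only (Fisher's exact p = 0.429, adjusted p = 1 for each). Its peaks abutted without sharing a base, from 29909931 to 29910121 in lean mouse 1 and from 29910122 to 29910162 in lean mouse 2 on chromosome 13, with folds of 10.42 and 25.92. E2f1 had 1 peak, in lean mouse 1, with a fold of 27.8. Tfdp2, a dimer partner of E2F, had its peaks in mouse 1 of both genotypes, and Rbl1 (p107) and Tfdp1 each had 1 in db/db mouse 4.

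Wee1, the kinase that holds CDK1 inactive before mitosis, had peaks in each db/db mouse and in lean mouse 3 (Fisher's exact p = 0.143, adjusted p = 1). Covered bases were 52, 55, 71 and 32 in db/db mice 1 to 4, 76 in lean mouse 3 and 0 in the other lean mice. The lean value was thus above all db/db values (means 52.5 ± 16 and 19 ± 38, SD, n = 4 each, exact permutation p = 0.143, adjusted p = 0.932). Db/db mice 2 and 3 and lean mouse 3 shared a region, chr7:110141956-110142031, with folds of 5.73, 8.11 and 10.6, while db/db mice 1 and 4 had their peaks elsewhere in the gene. Cdc14b, of a family of phosphatases that oppose CDKs in yeast, had peaks at different places in db/db mouse 3 and lean mouse 2.

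**Figure D5:**
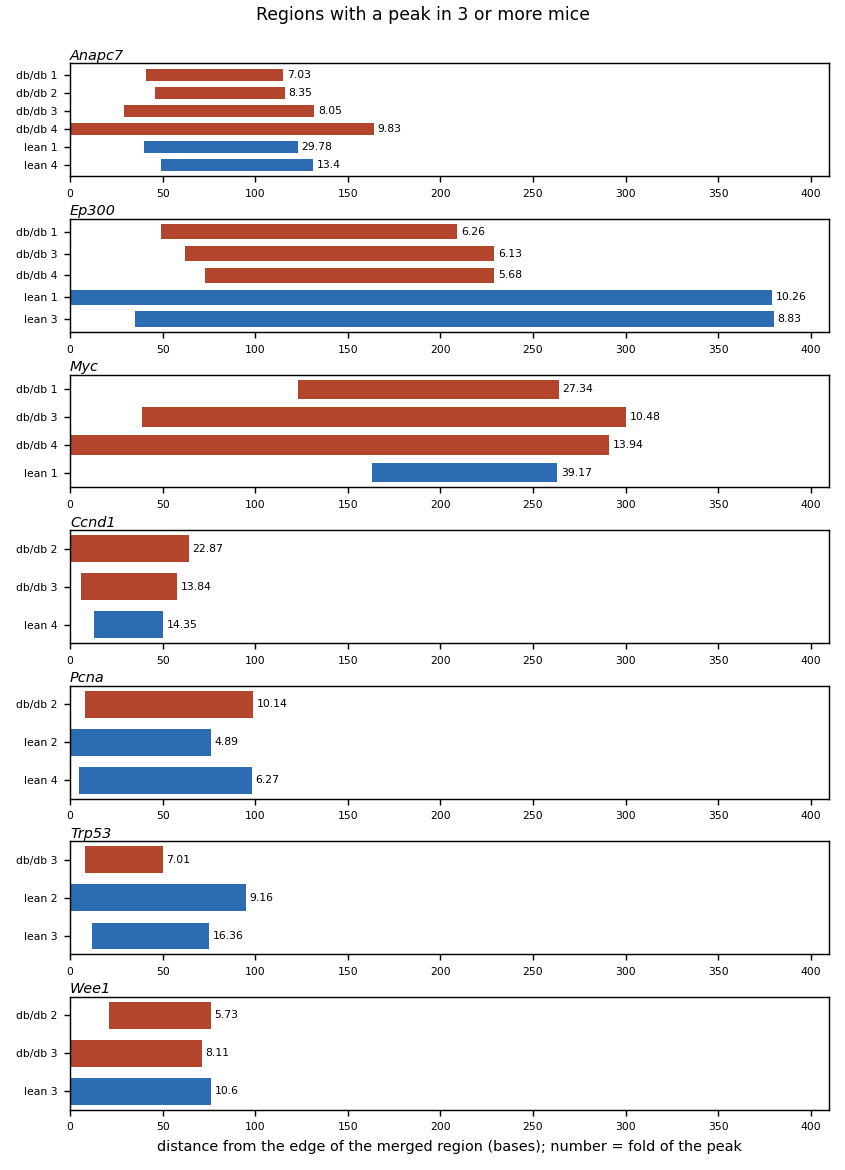
Extent of each peak, in bases from the edge of the merged region, in the 7 cell cycle regions with a peak in 3 or more mice (db/db red, lean blue), in transcript direction where the strand was listed and otherwise by coordinate; numbers are the authors' folds. In Ep300 the 2 lean peaks are 379 and 345 bases long and the 3 db/db peaks 156 to 167 bases.

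Mad1l1 encodes MAD1, which recruits MAD2 to unattached kinetochores. Peaks were listed in it for each db/db mouse and for lean mice 3 and 4 (Fisher's exact p = 0.429, adjusted p = 1). Covered bases were 99, 119, 97 and 87 in db/db mice 1 to 4 and 0, 0, 42 and 130 in lean mice 1 to 4 (means 100.5 ± 13.4 and 43 ± 61.3, SD, n = 4 each, exact permutation p = 0.143, adjusted p = 0.932). Its 7 peaks fell into 5 regions of a gene of 312920 bases. Db/db mouse 2 and lean mouse 3 shared chr5:140300226-140300308, and db/db mouse 3 and lean mouse 4 shared chr5:140300434-140300563. With lists of equal length Mad1l1 had a peak in equal numbers of db/db and lean mice.

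Pttg1, or securin, the inhibitor of separase, had peaks in db/db mice 1, 2 and 3 and none in lean mice (Fisher's exact p = 0.143, adjusted p = 1). The folds were 10.49, 13.31 and 5.36. The 3 peaks lay at 3 places within the gene, at 25.8%, 17.1% and 96.8% of its length in db/db mice 1 to 3. Bub3, a subunit of the spindle checkpoint, had 1 peak, in db/db mouse 3. Of 28 genes of the spindle checkpoint and mitosis, 9 others had a peak without the annotation and 16 had no listed peak, among them Bub1, Plk1, Aurka and Aurkb.

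Of 10 DNA damage checkpoint genes, 6 had a peak, each in 2 or 3 mice. Prkdc, the catalytic subunit of DNA-dependent protein kinase, had peaks in db/db mice 1, 2 and 3 and none in lean mice (Fisher's exact p = 0.143, adjusted p = 1), with folds of 18.59, 17.59 and 8.64 at 3 places. Mdm2, the ubiquitin ligase that degrades p53, had peaks in db/db mouse 3 and in lean mice 1 and 2. Db/db mouse 3 and lean mouse 2 shared chr10:117690279-117690514, with peaks of 232 and 200 bases and folds of 6.17 and 5.16. Sfn (14-3-3 sigma), which keeps CDK1 out of the nucleus after damage, had peaks in db/db mice 2 and 4 (folds 18.29 and 30.34) and none in lean mice. Gadd45a, a damage-induced inhibitor of CDK1, had peaks in db/db mice 1 and 4, and none in lean mice, both within the lncRNA gene E230016M11Rik (Fisher's exact p = 0.429, adjusted p = 1 for Sfn and for Gadd45a). Atm, the kinase that responds to DNA breaks, had peaks at different places in mouse 1 of each genotype. Of the 10 genes of the p53 signalling pathway among the 52, 5 had more db/db mice, 2 more lean mice and 3 equal numbers. Of all genes, 45.3% had more db/db mice and 32.3% more lean mice.

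Among the growth and differentiation signals, 8 of 11 genes had a peak, 7 with more db/db mice and 1 with more lean mice. Beside these, 45.3% of all genes had more db/db mice and 32.3% more lean mice. With lists of equal length the counts turned to 2 with more db/db mice and 3 with more lean mice, of 6 genes left (all genes 39.7% each). With peaks of p at most 1e-10 they were 3 and 1 of 4 (all genes 46.2% and 35.8%). Ep300 encodes the acetyltransferase p300, a coactivator of many transcription factors. Peaks were listed in it for db/db mice 1, 3 and 4 and for lean mice 1 and 3 (Fisher's exact p = 1, adjusted p = 1), and those 5 mice shared a region of 380 bases, chr15:81650790-81651169. Its midpoints lay 1080 to 1158 bases before the gene's end. There the peaks were 160, 167 and 156 bases long in db/db mice 1, 3 and 4 and 379 and 345 bases in lean mice 1 and 3, so that both lean peaks were longer than all 3 db/db peaks. Folds were 6.26, 6.13 and 5.68 in these db/db mice and 10.26 and 8.83 in the lean mice. Db/db mice 1 and 4 also shared a site near the start, chr15:81586221-81586442, with folds of 10.03 and 12.12. Covered bases over the gene were 382, 0, 167 and 272 in db/db mice 1 to 4 and 379, 0, 386 and 0 in lean mice 1 to 4 (means 205 ± 163 and 191 ± 221, SD, n = 4 each, exact permutation p = 0.914, adjusted p = 1). At equal list length Ep300 had a peak in 1 db/db and 2 lean mice.

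Crebbp encodes CBP, the close relative of p300. It had 5 peaks, 3 in db/db mouse 1 and 1 each in db/db mice 2 and 3, and none in lean mice (Fisher's exact p = 0.143, adjusted p = 1). All lay at least 79.7% of the way along the gene, at 5 places, with folds from 6.77 to 23.74. Myc, the growth-promoting transcription factor, had peaks in db/db mice 1, 3 and 4 and in lean mouse 1 (Fisher's exact p = 0.486, adjusted p = 1). These 4 mice shared a region of 300 bases, chr15:61989811-61990110, with folds of 27.34, 10.48, 13.94 and 39.17 and peaks of 141, 261, 291 and 100 bases. Covered bases over Myc were 141, 0, 337 and 291 in db/db mice 1 to 4 and 144, 0, 0 and 0 in lean mice 1 to 4 (means 192 ± 153 and 36 ± 72, SD, n = 4 each, exact permutation p = 0.257, adjusted p = 1). The lean value lay within the db/db range.

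Smad3, a transcription factor of TGF-beta signalling, had peaks in each db/db mouse and in lean mice 1 and 3 (Fisher's exact p = 0.429, adjusted p = 1). Its 8 peaks fell into 7 regions. Db/db mouse 1 and lean mouse 1 shared chr9:63648608-63648926, with folds of 6.26 and 6.95 and peaks of 274 and 265 bases. Covered bases were 274, 51, 86 and 94 in db/db mice 1 to 4 and 346, 0, 40 and 0 in lean mice 1 to 4 (means 126 ± 100 and 96.5 ± 167, SD, n = 4 each, exact permutation p = 0.629, adjusted p = 1). At equal list length Smad3 had a peak in 1 db/db and 2 lean mice.

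Abl1, a tyrosine kinase that also acts in the nucleus, had 5 peaks at 5 places, 3 of them in db/db mouse 1 and the others in lean mouse 4 and db/db mouse 3. Gsk3b, which marks cyclin D1 for destruction, had a peak in lean mice 1 and 2 only (Fisher's exact p = 0.429, adjusted p = 1). Its midpoint in lean mouse 1 was 120 bases after the listed start, with a fold of 18.77. That peak also overlapped the lncRNA gene BC031361. Smad2 and Zbtb17, a partner of MYC, had 1 peak each, in db/db mouse 1.

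Over the 8 cell cycle genes with a peak in at least 4 mice, 0 passed the exact permutation test of covered bases adjusted over 2094 such genes (0% of those genes passed). The smallest adjusted p among all 2094 genes was 0.831. None of the 8 had an unadjusted p under 0.05, beside 3.44% of the 2094, of which 2.1% of the 2094 had more bases in db/db mice. The smallest p that 70 assignments of 8 mice allow is 0.0286.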

How the data were processed

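The members, the role lists and the tests were chosen with earlier results of these data known. Per the file headers and peak names, the authors called peaks in the style of MACS, 1 list per mouse without pooling. The tools named in the submitters' processing notes are HISAT2 2.0.4 and cutadapt 1.9.3, on build mm10. How the peak caller used the 8 input libraries, which were not analysed here, and its version are not given in the sources used here. Fold enrichment is a ratio that the authors deposited, relative to the background of each list. The deposited score is 10 times the negative log10 of a peak's p-value, at least 50 in these lists. Peak lengths in bases were also used as deposited, and 8 columns were not used.

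Lists were joined to libraries by sheet name. Starts were converted to count from 1. Peaks sharing at least 1 base within a gene were merged into regions. Presence per gene and region was tested with Fisher's exact test, two-sided, and covered bases with the exact permutation test over 70 assignments for genes with a peak in at least 4 mice. Adjustment was by Benjamini-Hochberg over all genes or regions. Gene bounds were those of RefSeq GRCm38.p6, in which 98.3% of peaks with a matching gene ID had their midpoint in the named gene. Named were genes with a peak in at least 6 mice, genes differing by at least 3 mice (2 for lean), the 5 of highest percentile of fold, the 5 with most regions and up to 3 more per role; others were named after their values were seen. Groups and mouse numbers came from the labels' titles. Functions were tested on simulated data. Alternatives were a fold of at least 4.7, a p of at most 1e-10, equal list lengths of 2475 peaks, merging at 50% of the shorter peak, midpoints inside the gene, leaving out each mouse and a replicate block. Python 3.11.15, pandas 2.3.3 and SciPy 1.17.1 were used.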

Additional observations from a re-analysis of the deposited data

Results flagged for a closer look

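A single mouse stood apart from its group in 7 of 42 sets of values checked. The limit used is one that chance passes in about 1 of 20 sets of continuous values. That rate does not apply to 5 of the 7, where the remaining values were identical, at 0 bases for Fzr1, Myc, Wee1 and Pcna. Lean mouse 1 had 2264 bases under peaks of cell cycle genes, against 638 to 914 in the other lean mice, and 346 bases in Smad3, against 0 to 40. It had 3 peaks near a transcript start, against 2 in each other lean mouse. Lean mouse 2 alone of its group had covered bases in Fzr1 (62), lean mouse 1 in Myc (144) and lean mouse 3 in Wee1 (76). Among db/db mice, mouse 2 alone had covered bases in Pcna (91).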

How the results depend on the processing

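The counts of cell cycle genes and regions that passed an adjusted test were 0 under every alternative tried, which shows no stability, since the smallest p is 0.0286 with 4 against 4 mice and no adjusted p in the lists as deposited, over all genes or regions, was below 0.831. At an unadjusted p under 0.05 there were also 0, except that 1 to 3 genes passed when db/db mouse 1 or 4 or lean mouse 2, 3 or 4 was left out. The difference between the genotypes in genes with a peak, 7.5, was 3 at equal list length and 2.5 with peaks of p at most 1e-10. The 5 genes that differed by 3 mice or more (beside 3.54% of all genes) became 1 in each of these settings (beside 3.05% and 2.03%). They became 0 to 8 with 1 mouse left out (beside 2.61% to 4.74%), lower without a db/db mouse because 3 against 0 is then needed, and the difference in genes with a peak ran from 5.75 to 9.75. Regions in at least 4 mice, 3 in all, fell to 1 with peaks of p at most 1e-10, from 2.61% of 115 to 2.38% of 42 (all regions 7.92% and 9.55%), where the median percentile of fold was 31.1 in place of 44.3. Only 51 of 144 peaks (35.4%, beside 42.2% of all peaks) reach that p. The percentile alternatives were added after seeing the data. Of 43 named genes, 23 kept their direction or lack of one with p at most 1e-10 and 29 at equal list length, and 19 and 11 moved to or from no difference. The sign of the difference in mice turned for Anapc7 with p at most 1e-10 (-50 percentage points, db/db minus lean), and for Anapc5, Ep300 and Smad3 at equal list length (-25 each). In the replicate block, which pairs mice of 1 number, the difference is 7.5 by arithmetic. There 0 genes and regions passed, but swaps within pairs allow too few assignments for any p under 0.05, so none could pass. Deviations of same-numbered mice correlated between -0.03 and 0.01, and those of other pairs between -0.03 and 0.03. No pairing by number showed in the peak lists, which cannot tell whether such mice were kept or processed together. Without read counts, depth sets an unknown limit on what a missing peak shows.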

Other observations

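In each list a single fold value recurred in 4.45% to 8.01% of peaks. In db/db mouse 1 it was 16.53, the fold of 312 peaks, and 6 of the 32 peaks of cell cycle genes there had exactly this value (Atm, Cdk1, Gadd45a, Orc4 and 2 peaks of Orc2). In the other lists the most frequent value was that of at most 1 peak of these genes, among them Sfn in db/db mouse 2 (18.29), Rbl1 in db/db mouse 4 (17.33) and Cdkn1c in lean mouse 2 (16.2). With other repeated values included, 11 peaks of cell cycle genes in db/db mouse 1 shared their fold with another such peak. They include those of Abl1, Prkdc and Tfdp2 at 18.59. In db/db mouse 4 there were 4, among them both peaks of Mcm6, and in db/db mouse 3 and lean mouse 1 there were 2 each. Peaks with the most frequent fold of a list had median lengths of 42 to 59 bases, below the list medians of 53 to 88. The fold of such a peak therefore ranks it only together with the others of that value. The cause was not tested.

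Of the 52 genes, 24 were also annotated to HTLV-I infection, 12 to FoxO signalling and 10 to TGF-beta signalling.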
